A study of Mus musculus with 9 samples.

Results

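The genes described here are neighbours on mouse chromosome 12, from Trappc12 to Sel1l, whose signal was lower in the arrays labelled shZeb1_C, 1 of 2 groups of a leukaemia cell line that carried a hairpin against Zeb1. Of 57 listed genes, 54 had a probe set with that symbol, out of 19505 genes measured, and each had 1 probe set. Eif2s1, Med6 and Syne2 were not analysed here. The members were chosen by the mean differences between the shZeb1_C and Scr arrays along the chromosome, so those differences describe the choice and support nothing. The comparison of shZeb1_D with Scr did not choose them and was tested, although it shares the Scr arrays.

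The cells were C1498, an established mouse leukaemia line, infected with lentivirus that carried GFP and 1 of 3 constructs. In the shZeb1_C group the construct was a short hairpin RNA of sequence C against Zeb1, a zinc-finger transcription factor. In the shZeb1_D group it was sequence D against the same gene, and the Scr group carried a negative control construct. GFP-positive cells were isolated after 2 weeks and their total RNA was hybridised to 1-colour arrays, with 3 arrays in each group. All groups therefore share the virus, GFP and the sort, and uninfected cells were not analysed here. Whether the 3 arrays of each group stem from independent infections is not stated. Their spread, on which every p-value rests, may thus be technical. Zeb1 averaged 10.25 ± 0.21 (log2 signal; SD, n = 3) in shZeb1_C, 9.41 ± 0.15 in shZeb1_D and 10.46 ± 0.15 in Scr. The targeted gene was thus lower than Scr by limma in shZeb1_D (adjusted p = 0.0263) but not in the arrays labelled shZeb1_C (adjusted p = 0.895), and the direction of the chromosome 12 values follows that label.

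Genes that lie side by side on a chromosome need not share a function or a regulator. They do share their DNA, and when a segment is lost or gained in a cell line, the RNA of most genes on it tends to move with the number of copies, while some genes are buffered. The members listed here include genes of membrane traffic, splicing, translation, replication, signalling and metabolism, most of them active in nearly every dividing cell.

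Array medians of log2 signal lay between 7.02 and 7.17, with a correlation (Pearson's r over probe sets) of 0.9773 to 0.9950 for arrays of one group and of 0.9679 to 0.9892 for arrays of different groups. Within groups, the arrays fell on 2 sides of a first component that held 57.9% of the residual variance, 5 arrays on one side and Scr 8, shZeb1_C 12, shZeb1_D 14 and shZeb1_D 15 on the other. Of the 54 members, 13 were lower and 9 were higher in those 4 arrays than in every other array of their own group, in all 3 groups at once (24.1% and 16.7% of members, against 25.8% and 23.7% of probe sets above the median level). Of 7 myeloid markers, 2 lay above the median level, Mpo and Fcgr3. The summed signal of all 7, in log2, was 9.46 to 9.67 in shZeb1_C, 11.29 to 11.65 in shZeb1_D and 11.89 to 12.35 in Scr. Fcgr3, an Fc receptor, averaged 7.78, 11.10 and 11.87 in the groups in that order. Spi1 and Cebpa, which define the myeloid lineage, averaged 5.48 and 6.14 in shZeb1_C, 5.55 and 6.10 in shZeb1_D and 5.34 and 6.06 in Scr, below the median level over all probe sets of 7.10. Of 5 T and NK cell markers, 4 lay above it. The summed signal of all 5 was 16.45 to 16.63 in shZeb1_C, 15.88 to 16.09 in shZeb1_D and 15.93 to 16.44 in Scr. Nkg7, a granule protein of cytotoxic cells, averaged 10.52, 5.19 and 4.58 in the same order. The part of these array and marker differences in the chromosome 12 values was not tested.

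The members as a group were lower on each of the 3 shZeb1_C arrays. Relative to the Scr mean of each gene, the median member stood at -0.38, -0.59 and -0.66 (log2) on shZeb1_C arrays 10, 11 and 12, at -0.09, -0.20 and -0.17 on shZeb1_D arrays 13, 14 and 15, and at -0.15, 0.10 and 0.05 on Scr arrays 7, 8 and 9. The 3 shZeb1_C arrays lay below all 6 other arrays, while the shZeb1_D arrays overlapped those of Scr. As the shZeb1_C and Scr arrays chose the members, their order is a description only. The Scr values of each gene average 0 by construction. Genes above the median level on other chromosomes stayed between -0.06 and 0.03 on every array. On shZeb1_C arrays 48, 52 and 47 of the 54 members lay below their Scr mean, on shZeb1_D arrays 34, 34 and 31, and on Scr arrays 38, 24 and 24. In bulk samples such as these, less RNA per cell and fewer cells carrying a change cannot be told apart.

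**Figure D1:**
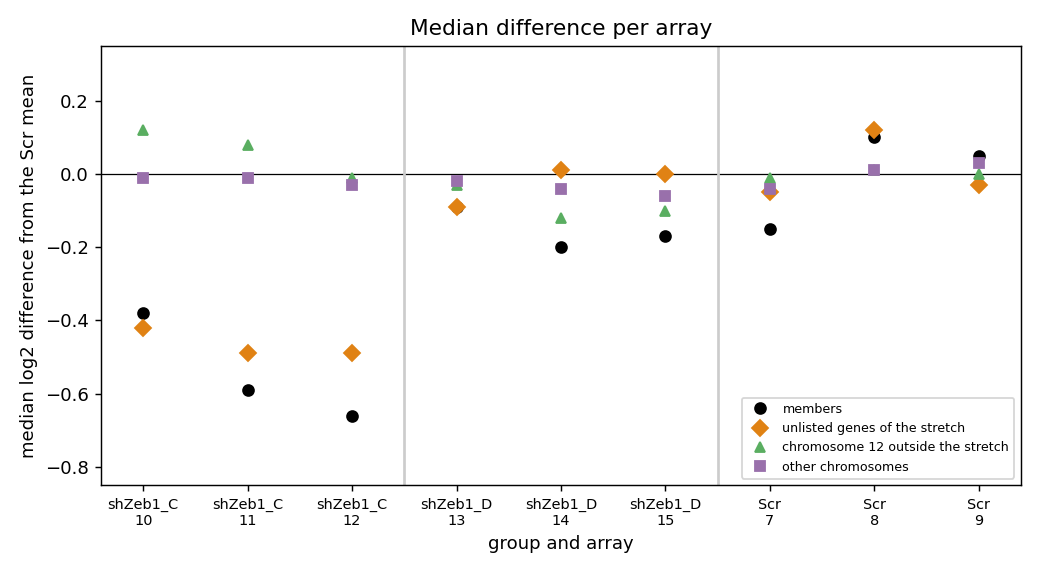
Median log2 difference from the Scr mean on each of the 9 arrays (x axis: group and array number), for the 54 members, the 132 unlisted genes of the same stretch, the 145 genes of chromosome 12 outside it and the 9428 genes of other chromosomes, all but the members limited to genes above the median level. On the 3 shZeb1_C arrays the members lie at -0.66 to -0.38 and the unlisted genes at -0.49 to -0.42, below the values of both sets on every other array. The shZeb1_C and Scr arrays chose the stretch, so this is a description only.

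Over the mean of the arrays, the median member stood at -0.61 in shZeb1_C against Scr, with quartiles of -0.88 and -0.34, and 50 of 54 differences were below 0. Among all probe sets tested, the median was 0.00 and 49.9% of differences were below 0. Limma called 3 members, each of them lower (Gphn, Baz1a and Ralgapa1), where 0.945% of all probe sets were called in either direction and 0.286% lower. Of the 54, 28 had all 3 shZeb1_C arrays below all 3 Scr arrays, where 6.74% of all probe sets and 9.06% of those above the median level did. In 0 members they lay above, where 7.5% and 8.37% did. Of probe sets above the median level, 54.4% had a difference below 0. As the stretch was found from this contrast, nothing is read from these counts. Without any one of Scr 7, Scr 8, Scr 9, shZeb1_C 10, shZeb1_C 11 or shZeb1_D 15 the count of called members was 1, and Gphn was called whichever of the 9 arrays was left out, Baz1a in 2 of 9 cases and Ralgapa1 in 1.

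Gphn had the largest difference of the members. It encodes gephyrin, which makes the molybdenum cofactor and anchors inhibitory receptors at synapses. Its log2 signal was 8.24, 7.72 and 7.82 on the shZeb1_C arrays, 9.80, 9.61 and 10.04 on the shZeb1_D arrays and 9.77, 10.00 and 9.88 on the Scr arrays. The shZeb1_C arrays were all lower than the other 6, and the shZeb1_D and Scr arrays overlapped. The difference was -1.96 ± 0.18 (SE) in shZeb1_C, or 25.8% of Scr, and -0.07 ± 0.18 in shZeb1_D. The limma adjusted p was 0.00175 and 0.905.

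Baz1a, a subunit of nucleosome-remodelling complexes, was 10.77, 10.76 and 10.84 in shZeb1_C, 10.98, 11.15 and 11.08 in shZeb1_D and 11.58, 11.74 and 11.51 in Scr. The 3 groups did not overlap, with shZeb1_C lowest. Its differences from Scr were -0.82 ± 0.13 (SE) in shZeb1_C and -0.54 ± 0.13 in shZeb1_D, with a limma adjusted p of 0.0248 and 0.121. Ralgapa1, the catalytic subunit of a GTPase-activating complex for Ral proteins, was 8.85, 8.73 and 8.63 in shZeb1_C, 9.70, 9.38 and 9.37 in shZeb1_D and 9.48, 9.74 and 9.67 in Scr. Only shZeb1_C stood apart, at -0.89 ± 0.15 (SE; limma adjusted p = 0.033). Klhdc2, a substrate receptor of a ubiquitin ligase, was 12.45, 12.22 and 12.23 in shZeb1_C, 13.11, 13.70 and 13.81 in shZeb1_D and 13.17, 13.79 and 13.44 in Scr. All shZeb1_C arrays were again the lowest, at 44.5% of Scr, although the limma adjusted p of 0.0531 missed the threshold.

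Promoters of these members are shown because Zeb1 binds E-boxes, short motifs that may lie near the start of its target genes. The 6-base motif was searched as CAGGTG and CAGGTA and, for the other strand, as CACCTG and TACCTG, which cannot start at the same base. The windows run from 250 bases before to 50 after a gene's start in RefSeq, build GRCm38.p6, and matches are in capitals. Gphn and Klhdc2, both far lower in shZeb1_C, hold 0 matches. Snapc1, as low as Klhdc2 at -1.17, holds 1 match, as does Map4k5, the member with the highest difference. Nin, second lowest at -1.25, is also among the members with a match, though its windows are not printed.
Gphn, chr12:78226405-78226704, strand +: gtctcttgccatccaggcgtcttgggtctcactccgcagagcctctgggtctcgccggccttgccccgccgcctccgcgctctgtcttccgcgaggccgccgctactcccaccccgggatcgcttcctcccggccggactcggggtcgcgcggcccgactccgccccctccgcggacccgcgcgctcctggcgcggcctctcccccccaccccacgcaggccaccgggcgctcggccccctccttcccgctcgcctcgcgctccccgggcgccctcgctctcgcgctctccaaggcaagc
Klhdc2, chr12:69296431-69296730, strand +: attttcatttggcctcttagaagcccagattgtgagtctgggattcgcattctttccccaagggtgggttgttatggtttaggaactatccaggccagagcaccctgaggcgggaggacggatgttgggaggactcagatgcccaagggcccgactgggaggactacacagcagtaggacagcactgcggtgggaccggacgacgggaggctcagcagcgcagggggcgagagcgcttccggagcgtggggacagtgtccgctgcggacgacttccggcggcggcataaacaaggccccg
Snapc1, chr12:73964247-73964546, strand +: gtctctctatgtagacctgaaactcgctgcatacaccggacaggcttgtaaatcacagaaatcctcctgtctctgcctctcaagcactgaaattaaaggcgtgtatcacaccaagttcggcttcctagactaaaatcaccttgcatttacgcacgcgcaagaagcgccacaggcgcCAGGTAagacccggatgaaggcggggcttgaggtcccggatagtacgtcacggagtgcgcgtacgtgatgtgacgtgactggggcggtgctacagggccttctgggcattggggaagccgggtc
Map4k5, chr12:69893114-69893413, strand -: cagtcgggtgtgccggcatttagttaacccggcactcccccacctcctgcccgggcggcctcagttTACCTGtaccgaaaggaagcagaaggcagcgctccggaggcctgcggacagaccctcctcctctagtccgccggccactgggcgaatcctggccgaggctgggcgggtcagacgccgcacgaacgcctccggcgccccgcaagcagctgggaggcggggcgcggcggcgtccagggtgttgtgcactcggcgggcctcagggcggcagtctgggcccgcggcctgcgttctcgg

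RefSeq windows were found for 49 of the 54 members, and 6 of those members held at least 1 match (12.2%), namely Snx6, Map4k5, Nin, Snapc1, Fut8 and Numb. Per window, 11.9% of the members' 59 windows held a match, against 24.7% of the windows of genes above the median level on other chromosomes and 29.5% of all windows. The unlisted genes of the stretch stood at 26.5%. In shZeb1_C the median difference was -0.44 for the 6 members with a match and -0.61 for the 43 without. The 6 ran from -1.25 (Nin) to 0.66 (Map4k5, not above the median level). As the shZeb1_C values chose the members, these medians are a description only. A match is a run of letters only and does not show binding, and the lack of one says only that the letters are not in that window.

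Genes of membrane traffic and protein quality control had 13 of 14 differences below 0 in shZeb1_C, with a median of -0.42. Trappc12, a subunit of the TRAPP tethering complex and the first gene of the stretch, was 7.95, 7.74 and 7.09 in shZeb1_C, 8.67, 7.79 and 7.98 in shZeb1_D and 8.39, 8.07 and 8.44 in Scr. Its shZeb1_C arrays all lay below Scr, with a mean at 61.3% of Scr, and shZeb1_D overlapped both. Sel1l, an adaptor of endoplasmic reticulum degradation and the last gene of the stretch, was 8.72, 8.63 and 7.32 in shZeb1_C, 8.62, 7.51 and 7.72 in shZeb1_D and 8.39, 8.49 and 9.04 in Scr, and all groups overlapped. Sec23a, a coat protein of vesicles that leave the endoplasmic reticulum, was 8.94, 8.40 and 8.34 in shZeb1_C, 8.01, 8.40 and 7.89 in shZeb1_D and 8.15, 9.57 and 8.96 in Scr. Its difference of -0.33 in shZeb1_C was 0.00 without Scr 8 and -0.71 without Scr 7.

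Psma6, a subunit of the proteasome core, was 15.93, 15.76 and 15.79 in shZeb1_C, 16.01, 16.01 and 16.09 in shZeb1_D and 15.93, 16.03 and 15.84 in Scr. Its shZeb1_C mean was 92.9% of Scr and both hairpin groups overlapped Scr, while all shZeb1_C arrays lay below all shZeb1_D arrays. Arf6, a small GTPase of endosome recycling, was 15.13, 15.07 and 14.66 in shZeb1_C, 15.51, 15.03 and 15.12 in shZeb1_D and 15.56, 15.20 and 15.38 in Scr. There shZeb1_C lay below Scr without overlap, at 74.4% of Scr. Snx6, a sorting nexin, stood at 65.4% of Scr in shZeb1_C, Tmed10, a cargo receptor of the early secretory pathway, at 74.4%, and Fkbp3, a prolyl isomerase, at 69.1%, each with its arrays below Scr. Dcaf5, a substrate receptor of a ubiquitin ligase, stood at 63.3% with overlap. Vti1b, a SNARE of the endosomal system, was 12.99, 12.71 and 13.30 in shZeb1_C, 13.24, 13.53 and 13.78 in shZeb1_D and 12.72, 13.08 and 12.84 in Scr. Its shZeb1_C arrays overlapped both other groups, and all shZeb1_D arrays lay above Scr. Srp54a, which binds signal peptides, stood at 85.7%, Lrr1, a substrate receptor of a ubiquitin ligase, at 78.5%, and Atp6v1d, a subunit of the vacuolar proton pump, at 92.9%, with overlap.

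Genes of RNA processing and translation had a median of -0.73 in shZeb1_C, with 9 of 10 differences below 0. Gemin2, which helps assemble spliceosomal ribonucleoproteins, was 12.05, 11.75 and 12.37 in shZeb1_C, 11.98, 13.37 and 13.31 in shZeb1_D and 12.59, 13.44 and 12.69 in Scr. The shZeb1_C arrays lay below Scr, at 55.5% of it, and shZeb1_D spanned both. Srsf5, a splicing factor, was 14.15, 13.76 and 13.93 in shZeb1_C, 14.36, 14.04 and 14.19 in shZeb1_D and 14.12, 14.42 and 14.80 in Scr, where shZeb1_C 10 lay just above the lowest Scr array. Eif2b2, a subunit of the guanine nucleotide exchange factor eIF2B, was 11.80, 11.18 and 9.08 in shZeb1_C, 11.50, 10.14 and 9.63 in shZeb1_D and 11.95, 10.75 and 13.05 in Scr. It had the third largest difference, -1.23, but also the largest SE of the members at 0.80, and its groups overlapped. Snw1, a spliceosome component, stood at 43.5% of Scr in shZeb1_C, Pnn, a splicing-associated nuclear protein, at 45.3%, Trmt5, a tRNA methyltransferase, at 50.6%, Prpf39, a splicing factor, at 65.4%, and Nemf, of ribosome quality control, at 67.5%, each with no overlap with Scr. Erh stood at 86.7% and Zfp36l1, an RNA-binding protein that promotes mRNA decay, at 106%, both with overlap.

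Of the replication and repair genes, Pole2, a subunit of DNA polymerase epsilon, was 12.20, 12.04 and 12.37 in shZeb1_C, 12.61, 13.19 and 13.28 in shZeb1_D and 12.49, 12.83 and 12.43 in Scr. Its shZeb1_C arrays were the lowest of the 9, and its means were 76.8% of Scr in shZeb1_C and 136% in shZeb1_D. Fancm, a DNA translocase of the Fanconi anaemia pathway, was 8.76, 8.56 and 7.99 in shZeb1_C, 9.53, 8.36 and 8.56 in shZeb1_D and 9.22, 9.57 and 9.32 in Scr. The shZeb1_C arrays lay below Scr and the shZeb1_D arrays spread across both.

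Genes of transcription and chromatin had 7 of 8 differences below 0 in shZeb1_C, with a median of -0.59. Mnat1, the assembly factor of the CDK-activating kinase, was 11.92, 11.98 and 12.11 in shZeb1_C, 12.41, 13.09 and 13.14 in shZeb1_D and 12.59, 13.10 and 12.20 in Scr, with shZeb1_C below both other groups. Max, the partner with which MYC proteins bind DNA, was 13.76, 13.66 and 12.92 in shZeb1_C, 13.99, 13.26 and 13.21 in shZeb1_D and 13.85, 13.57 and 13.98 in Scr, and the groups overlapped. Batf, an AP-1 factor of lymphocytes, was 13.60, 13.50 and 13.83 in shZeb1_C, 13.32, 14.20 and 13.73 in shZeb1_D and 13.46, 13.59 and 13.49 in Scr. Batf was thus the 1 member of this group with a difference above 0, at 0.13 ± 0.22 (SE). Snapc1, of the complex that starts small nuclear RNA transcription, stood at 44.4% of Scr, Zbtb1, a zinc-finger protein needed in lymphoid development, at 62.3%, and Mbip at 68.0%, each without overlap. Brms1l, a subunit of a histone deacetylase complex, stood at 79.2% with overlap.

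Signalling genes had 8 of 9 differences below 0 in shZeb1_C, with a median of -0.60. Ppm1a, a metal-dependent protein phosphatase, was 10.45, 9.85 and 10.28 in shZeb1_C, 10.53, 11.52 and 11.13 in shZeb1_D and 11.00, 11.61 and 11.11 in Scr, so that shZeb1_C lay below both other groups at 48.4% of Scr. Sos2, an exchange factor for Ras, was 10.96, 10.23 and 9.92 in shZeb1_C, 10.69, 10.26 and 10.61 in shZeb1_D and 10.80, 11.26 and 11.39 in Scr. Here shZeb1_D and not shZeb1_C was separated from Scr. Numb, an inhibitor of Notch signalling, was 10.02, 9.96 and 9.38 in shZeb1_C, 10.03, 9.29 and 9.36 in shZeb1_D and 10.49, 9.36 and 10.30 in Scr, with overlap throughout.

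Sav1, the scaffold of the Hippo kinases, was 5.54, 5.13 and 6.33 in shZeb1_C, 5.19, 5.10 and 6.11 in shZeb1_D and 6.18, 5.41 and 5.46 in Scr, all below the median level of 7.10 where a loss of signal is hard to see. The same holds for Map4k5, a kinase of stress signalling, which was 5.06, 5.67 and 7.06 in shZeb1_C, 4.82, 5.13 and 5.37 in shZeb1_D and 5.02, 5.11 and 5.69 in Scr. Its difference of 0.66 ± 0.44 (SE) came with 1 high array, shZeb1_C 12. Prkch, a protein kinase C, stood at 66.0% of Scr in shZeb1_C, and the phosphatase 2A subunits Ppp2r3c and Ppp2r5e at 58.2% and 85.9%, all with overlap.

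Cytoskeletal and scaffold genes were the group with the lowest median in shZeb1_C, -1.05 over 4 members with Gphn among them. Actn1, an actin crosslinker, was 6.21, 6.04 and 7.12 in shZeb1_C, 6.47, 5.95 and 6.23 in shZeb1_D and 7.35, 7.27 and 7.29 in Scr, so that both hairpin groups lay below Scr. Nin, ninein of the centrosome, was 8.41, 8.47 and 7.67 in shZeb1_C, 9.50, 8.47 and 7.91 in shZeb1_D and 9.65, 8.71 and 9.95 in Scr. Its shZeb1_C arrays lay below Scr, and its difference of -1.25 ± 0.45 (SE) was the second largest. Cfl2, an actin-severing cofilin, stood at 64.9% of Scr with overlap.

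Metabolic and modifying enzymes had 7 of 7 differences below 0 in shZeb1_C, with a median of -0.76. Mthfd1, of one-carbon metabolism, was 12.43, 12.26 and 10.72 in shZeb1_C, 12.69, 11.70 and 11.40 in shZeb1_D and 13.16, 11.82 and 13.40 in Scr. The groups overlapped, and in each group the arrays of the smaller array set were the low ones. Mgat2, an enzyme of N-glycan synthesis, stood at 59.2% of Scr in shZeb1_C, Gstz1, of tyrosine breakdown, at 47.1%, and Dhrs7, a short-chain dehydrogenase, at 71.4%, each without overlap. Fntb, a subunit of protein farnesyltransferase, averaged 7.10 ± 0.51 (log2 signal; SD, n = 3) in shZeb1_C, 7.79 ± 0.67 in shZeb1_D and 8.10 ± 0.44 in Scr, also with shZeb1_C below Scr on all arrays. Fut8, which adds core fucose to N-glycans, stood at 86.1% and Dlst, a subunit of the oxoglutarate dehydrogenase complex, at 78.8%, with overlap.

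**Figure D2:**
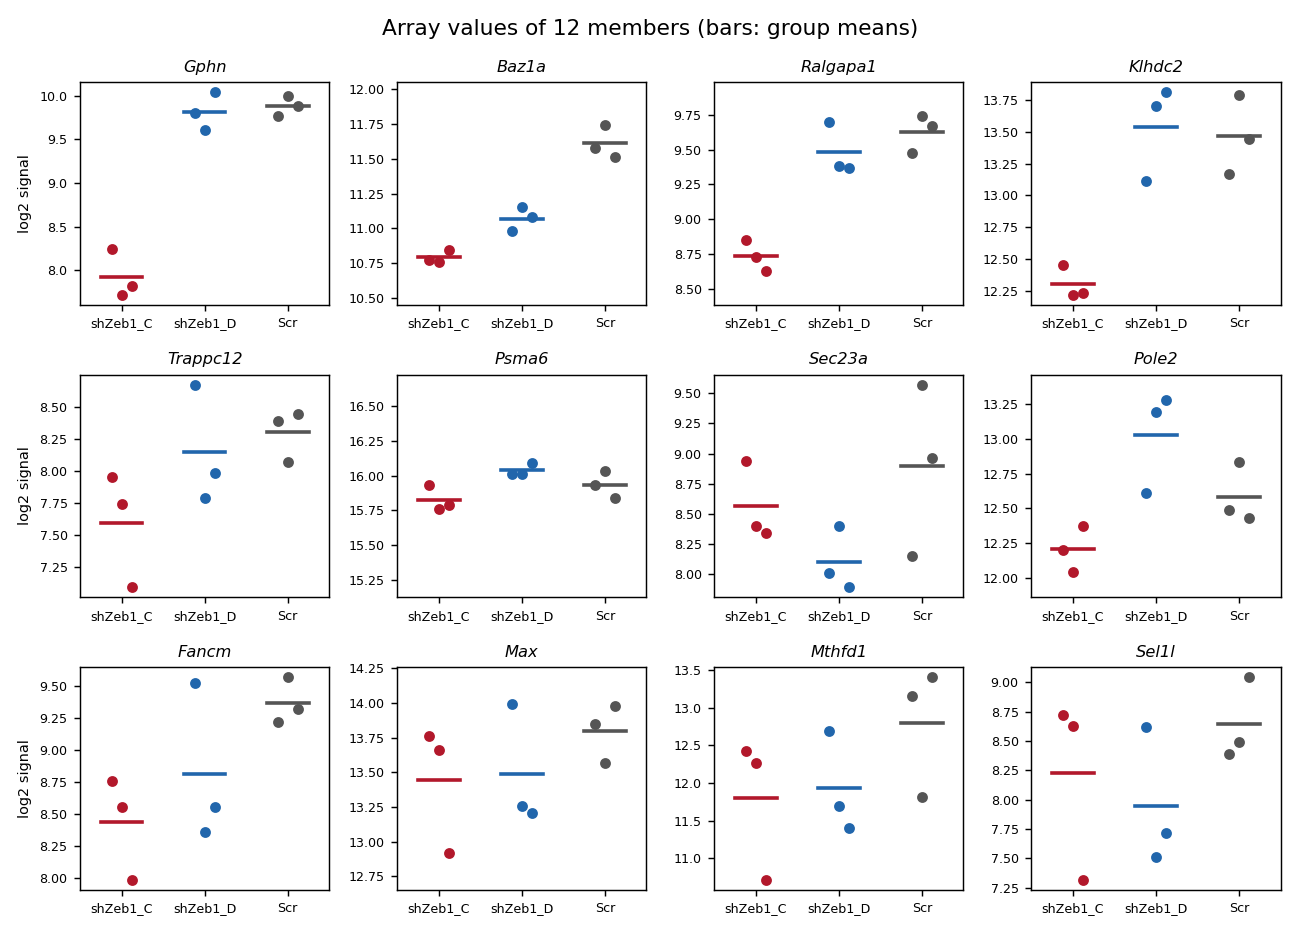
Log2 signal (y axis) of 12 members on each array of shZeb1_C, shZeb1_D and Scr, with bars at the group means. Gphn, Ralgapa1, Klhdc2 and Pole2 have all shZeb1_C arrays below all other arrays, whereas in Max, Mthfd1, Sec23a and Sel1l the groups overlap.

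In shZeb1_D against Scr, the comparison that did not choose the members, limma called 0 of 54 members, where 0.843% of all probe sets were called. The Scr arrays that helped choose the members serve here too, which can push these differences below 0. At an unadjusted p under 0.05 there were 9 of 54, where 13.6% of all probe sets passed. The median member stood at -0.16, with 36 of 54 differences below 0, where all probe sets had a median of 0.04 and 44.2% below 0. Of probe sets above the median level, 55% were below 0, and such genes on other chromosomes had a median of -0.05. Those of chromosome 12 before and after the stretch had medians of -0.05 and -0.16, with 59.3% and 65.9% below 0. In 6 members every shZeb1_D array lay below every Scr array (Baz1a, Mgat2, Sos2, Zbtb1, Actn1 and Erh), where 6.65% of all probe sets and 9.69% of those above the median level did. In 2 members every one lay above (Vti1b and Fut8), where 10.3% and 8.49% did. Without shZeb1_C 12 limma called 2 members, Mgat2 and Actn1, both lower, where 213 of 19572 probe sets were called. The mean signal of Actn1 was not above the median level.

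Mgat2 had the lowest p of the members in this comparison. It was 9.35, 9.51 and 8.99 in shZeb1_C, 8.99, 9.30 and 8.88 in shZeb1_D and 9.88, 10.02 and 10.22 in Scr, with both hairpin groups below Scr. Its difference in shZeb1_D was -0.98 ± 0.19 (SE; limma adjusted p = 0.0565). Several members that were low in shZeb1_C were level with or above Scr in shZeb1_D, among them Klhdc2 at 105% of Scr, Trmt5 at 115%, Gstz1 at 118% and Dhrs7 at 133%, none of which passed the test.

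**Figure D3:**
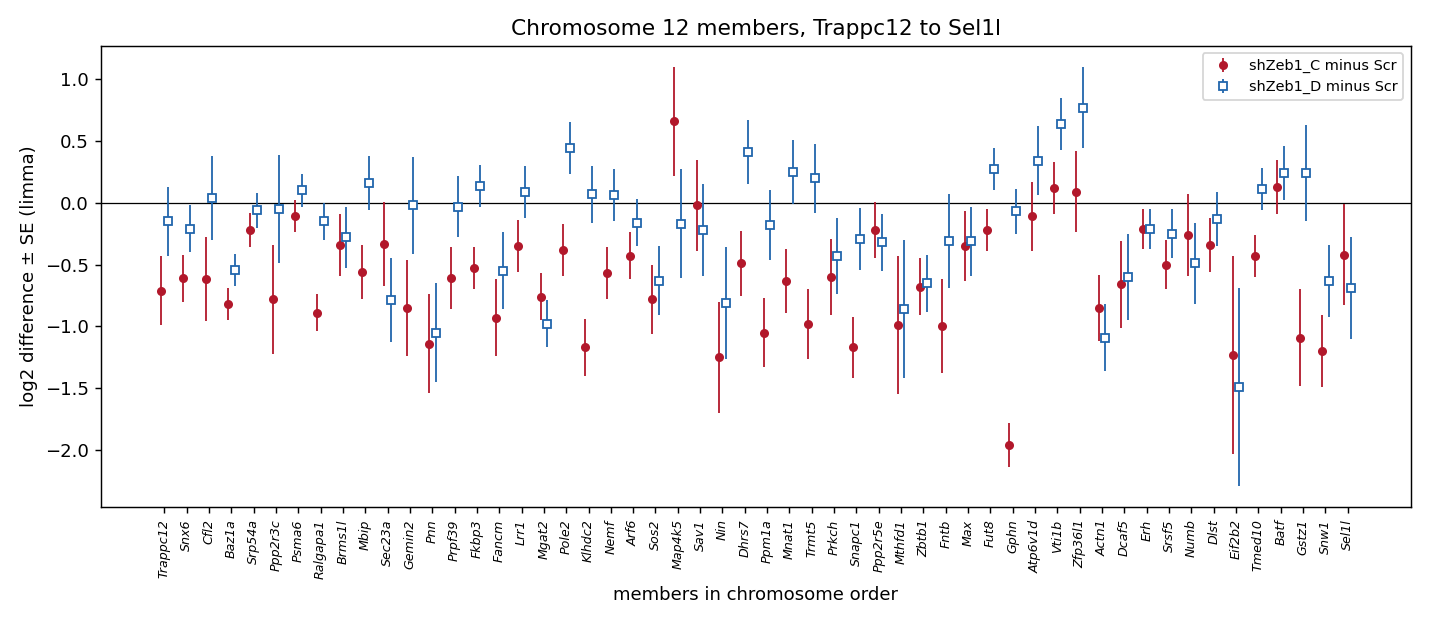
Log2 difference from Scr with its limma SE (y axis) for the 54 members in chromosome order (x axis), filled circles for shZeb1_C and open squares for shZeb1_D. In shZeb1_C 50 of 54 lie below 0, Gphn lowest at -1.96, whereas the shZeb1_D values lie on both sides of 0 with a median of -0.16.

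Set directly against shZeb1_D, the shZeb1_C arrays were lower in 44 of 54 members, with a median of -0.42, where all probe sets had a median of -0.04 and 55.4% lower (47.7% above the median level). This comparison shares the shZeb1_C arrays that chose the members and is a description only. Limma called 2 members, Gphn at -1.89 ± 0.18 (SE; adjusted p = 0.00277) and Klhdc2 at -1.24 ± 0.23 (adjusted p = 0.0449), where 0.848% of all probe sets were called. In 19 members all shZeb1_C arrays lay below all shZeb1_D arrays, where 8.99% of all probe sets and 8.17% of those above the median level did. In 0 members they lay above, where 6.26% and 8.62% did. The call of Gphn held in 9 of 9 fits that left out an array and that of Klhdc2 in 2. The count was 1 without Scr 7, Scr 9, shZeb1_D 14, shZeb1_D 15 or any shZeb1_C array. In those fits 49 to 150 of all 19572 probe sets were called, against 166 with all 9 arrays.

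Unlisted genes of the stretch were low in shZeb1_C as well, but the same differences along the chromosome had set the stretch. The shZeb1_C values of this paragraph therefore describe that choice and support nothing. Between Trappc12 and Sel1l lay 181 genes above the median level, 49 of them members, and the 132 unlisted ones had a median of -0.54 in shZeb1_C, with 117 below 0, and of -0.04 in shZeb1_D. The 54 genes of chromosome 12 before Trappc12 had a median of 0.06 in shZeb1_C and the 91 genes after Sel1l of 0.05. Of the 20 chromosomes with genes above the median level, chromosome 12 had the lowest median in shZeb1_C, -0.26, while its median of -0.07 ranked 10 from the lowest in shZeb1_D. The order of genes was taken from RefSeq, and the build behind the deposited values was not stated.

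In consecutive runs of about 20 genes across the stretch, the medians in shZeb1_C were -0.37, -0.61, -0.53, -0.56, -0.66, -0.62, -0.50, -0.58 and -0.40, against -0.21 to 0.17 in shZeb1_D. The genes next to both ends of the listed stretch were below 0 in shZeb1_C, and values above 0 followed among the 10 nearest on each side. On the near side, Adi1 and Rnaseh1, the 2 genes just before Trappc12, stood at -0.72 ± 0.33 (SE) and -0.57 ± 0.19, while the next, Rps7, stood at -0.16 ± 0.13. Farther out, Sox11 stood at 0.01 ± 0.17, Rnf144a at 1.24 ± 0.20 (limma adjusted p = 0.0252) and Id2 at 2.33 ± 0.74 (limma adjusted p = 0.291), so that 7 of the 10 nearest genes on this side were below 0, with a median of -0.22. The last run of 18 genes before the stretch, from Hpcal1 to Adi1, had a median of -0.43 in shZeb1_C and of -0.07 in shZeb1_D, and the run before it, from Ldah to Odc1, of 0.17 and -0.03. On the far side Galc, Gpr65 and Zc3h14 stood at -0.59 ± 0.29, -0.92 ± 0.56 and -0.35 ± 0.36. The 8 genes after Sel1l, as far as Kcnk13 at -1.14, were all below 0, and the next gene, Psmc1, stood at 0.05. In shZeb1_D these 8 genes were below 0 as well, among them Galc at -0.46 and Kcnk13 at -0.73, and Psmc1 stood at -0.71. The run of 19 genes after the stretch, from Galc to Lgmn, had a median of -0.16 in shZeb1_C, with 12 below 0, and of -0.36 in shZeb1_D, with 18 below 0. From Golga5 to Glrx5, 1 of 18 genes was below 0 in shZeb1_C and 8 in shZeb1_D.

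**Figure D4:**
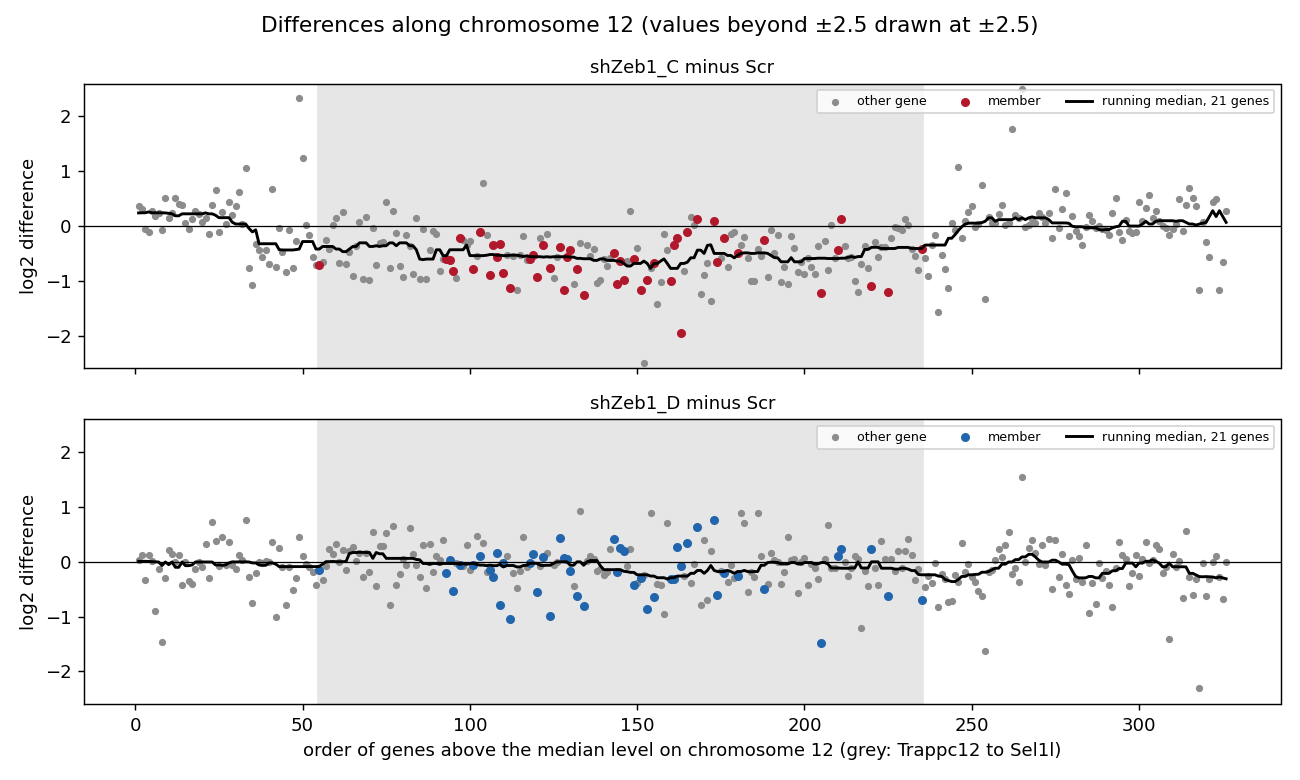
Log2 difference from Scr (y axis) of the genes above the median level on chromosome 12 in chromosome order (x axis), for shZeb1_C above and shZeb1_D below, with members coloured, the stretch from Trappc12 to Sel1l shaded and a running median over 21 genes as a line. The few values beyond the range of the y axis are drawn at its edge. Through the shaded stretch the line lies between -0.77 and -0.31 in shZeb1_C and between -0.31 and 0.17 in shZeb1_D, where it reaches -0.36 after the stretch.

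Within the stretch, the unlisted genes with the lowest values in shZeb1_C were Sgpp1, Hspa2, Rad51b, Rdh11 and Angel1. Sgpp1, a sphingosine-1-phosphate phosphatase, was 5.82, 4.56 and 6.09 in shZeb1_C, 12.01, 10.36 and 10.81 in shZeb1_D and 11.87, 10.64 and 11.38 in Scr. That difference of -5.81 ± 0.52 (SE; limma adjusted p = 0.00144) is far outside the range of the members, -1.96 to 0.66. Hspa2, a heat shock protein, stood at -1.43 ± 0.23 and Angel1 at -1.21 ± 0.20 (limma adjusted p of 0.0258 and 0.0308). The highest were Nfkbia, an inhibitor of NF-kB, at 0.78 ± 0.68, Hdac9 at 0.43, D830013O20Rik and Tspan13 at 0.28 and Slc26a3 at 0.25, and limma called none of these 5 (adjusted p of 0.684 to 0.935). The 140 genes of the stretch at or below the median level had a median of 0.00 in shZeb1_C, with 72 below 0, where such genes on other chromosomes had a median of 0.02.

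On the linear scale the median member stood at 65.7% of Scr in shZeb1_C, with quartiles of 54.2% and 79.1%, and at 89.3% in shZeb1_D. For comparison by arithmetic, loss of 1 copy leaves 50% where there were 2 copies, 66.7% where there were 3 and 75% where there were 4. In shZeb1_C 9 members lay below 50%, 27 between 50% and 75%, 14 between 75% and 100% and 4 above 100%. In shZeb1_D these counts were 3, 13, 20 and 18. The copy number of the DNA was not measured, array signals can understate a ratio, and gene dosage was not tested here.

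The size of the difference varied between members. As a description of the values that chose them, the SD of the 54 differences in shZeb1_C was 0.44, beside a root mean square SE of 0.31. Of the 54, 42 lay within 2 SE of the median of -0.61 and 12 beyond it. Klhdc2, Snapc1, Gphn and Snw1 lay below, and Srp54a, Psma6, Map4k5, Fut8, Vti1b, Zfp36l1, Erh and Batf above. By mean signal, the 18 lowest members had a median of -0.73, the 18 in the middle of -0.73 and the 18 highest of -0.43.

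**Figure D5:**
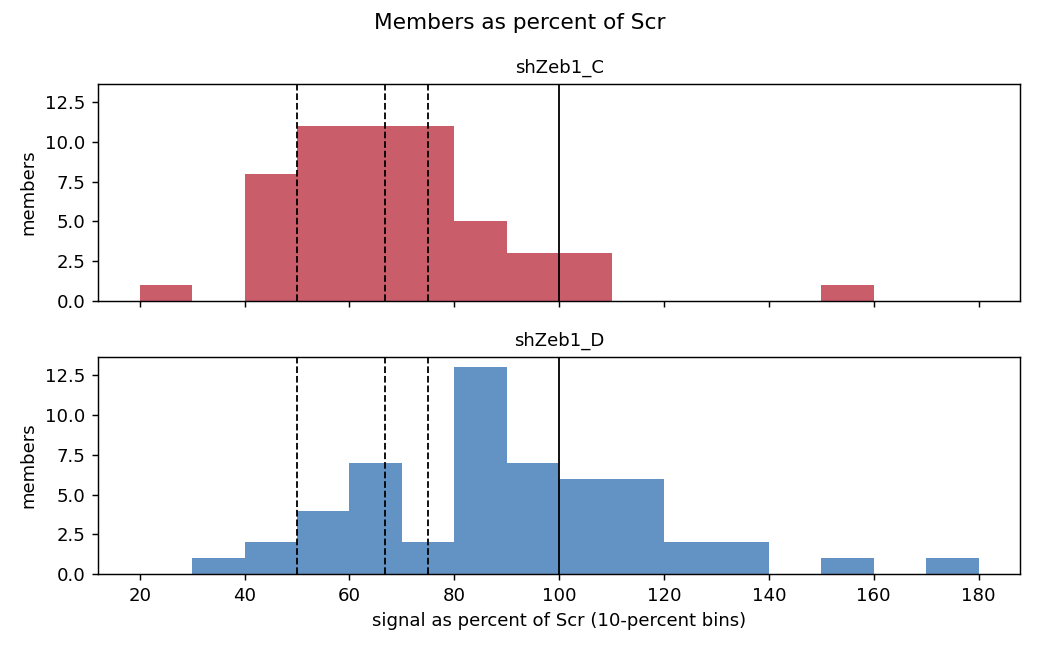
Number of members (y axis) by signal as percent of Scr (x axis, bins of 10), for shZeb1_C above and shZeb1_D below, with dashed lines at 50%, 66.7% and 75% and a solid line at 100%. In shZeb1_C 36 of 54 members lie below 75%, and in shZeb1_D 16.

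Many members work in complexes or pathways with genes that lie elsewhere in the genome, listed here as partners. Of 127 partner genes in 15 lists, 118 were measured outside the stretch, and limma called 0 of them in shZeb1_C, where 0.945% of all probe sets were called. At an unadjusted p under 0.05 there were 8 of 118, where 8.77% of all probe sets passed. Their median was -0.03, with 65 of 118 below 0, where all probe sets had a median of 0.00. By list, the median was -0.03 for 11 proteasome core subunits, 0.10 for 9 COPII genes, -0.17 for 6 genes of eIF2 and eIF2B, 0.08 for 7 genes of the signal recognition particle and its receptor and -0.04 for 3 subunits of DNA polymerase epsilon.

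It was -0.02 for 9 Fanconi anaemia genes, 0.01 for 7 genes of TFIIH and its kinase, -0.19 for 18 Mediator subunits, -0.05 for 7 subunits of the proton pump, 0.03 for 7 Hippo genes and -0.01 for 8 genes of endoplasmic reticulum degradation. For 10 genes of the MYC network it was -0.06, for 7 genes of the SMN complex -0.14 and for 8 phosphatase 2A genes -0.12. Ogdh, the remaining partner of Dlst, stood at 0.07. The 2 partners inside the stretch, Psma3 and Dld, stood at -0.41 and -0.67 in shZeb1_C and at 0.05 and 0.00 in shZeb1_D. In shZeb1_D limma called 2 of the 118, Stk4 at -2.16 ± 0.31 (SE; adjusted p = 0.0222) and Med22 at -1.15 ± 0.21 (adjusted p = 0.0437), both on chromosome 2.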

How the data were processed

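Expression was measured in 9 arrays of C1498 cells, 3 per group. The value table the authors deposited holds linear signals with the decimal point missing. The tools are RMA and the Transcriptome Analysis Console, per the submitters' processing notes, without versions. For all 199854 values the point was placed where log2 is a multiple of 0.01 (tolerance 1e-06 steps, nearest rejected place 0.036 steps). Of 22206 probe sets, the 19572 with 1 gene symbol were tested. The other 2634 had none in the annotation used. Symbols and gene order came from RefSeq, GRCm38.p6. The members, role groups and partner lists were chosen with earlier results of these data known.

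All 19572 probe sets were fitted with limma 3.58.1 in R 4.3.3, a mean per group and all 9 arrays, with empirical Bayes moderation. Calls need a Benjamini-Hochberg adjusted p under 0.05. Genes above the median level had a mean log2 signal above 7.10. Values per array are given for the first and last member, the 3 lowest and 3 highest differences in shZeb1_C, members called in the other comparisons and fixed examples of each role. Baz1a, Ralgapa1 and Mgat2 were added after their values were seen. In simulations of shZeb1_C against Scr with 19572 probe sets, changes of 0.5, 1, 2 and 3 were called in 2.0%, 38.8%, 86.0% and 93.6% of cases. Noise was drawn independently per probe set and array, without the component that these arrays share. The shares called may thus differ in the real data. The number of arrays limits the precision. Exact permutation of 3 arrays against 3 cannot give a p below 0.1.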

Additional observations from a re-analysis of the deposited data

Results flagged for a closer look

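The shZeb1_C and shZeb1_D arrays differed by limma's direct contrast in 2 of 54 members, where 0.848% of all probe sets were called. In Gphn shZeb1_C minus shZeb1_D was -1.89 ± 0.18 (SE; limma adjusted p = 0.00277), with 3 of 3 shZeb1_C arrays below all shZeb1_D arrays. In Klhdc2 it was -1.24 ± 0.23 (limma adjusted p = 0.0449), again with 3 of 3 arrays below. The call of Klhdc2 held in 2 of 9 fits that left out an array, and that of Gphn in 9. The shZeb1_C arrays had also chosen the members, so neither is independent evidence of a difference.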

How the results depend on the processing

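No paired analysis was possible because the array numbers run from 7 to 15 and no number is shared between groups. The median difference of the members in shZeb1_C stayed within 1 SD of its arrays under all 17 alternatives, and was -0.66 to -0.48 with an array left out. In shZeb1_D the median of -0.16 was -0.25 with array medians subtracted, -0.10 without the 4 arrays of the smaller array set (an alternative chosen after seeing the data) and -0.22 to -0.13 with an array left out. Counts of called members were less steady. Against 3 in shZeb1_C, limma called 1 with a trended and robust prior or only the 6 arrays compared, 8 with array weights, 16 with the array sets as a covariate, 7 without the 4 arrays, 5 at an adjusted p under 0.10 and 1 to 4 with an array left out. Against 0 in shZeb1_D, limma called 4 with array weights or the array sets as a covariate, 1 at 0.10 and 0 to 2 with an array left out. Of all probe sets, the fit used above called 165. With array weights 1076 were called, with the array sets as a covariate 772, and with an array left out 14 to 213. Between shZeb1_C and shZeb1_D the count of 2 was 1 with array medians subtracted, a trended and robust prior or only the 6 arrays compared. It was 9 with array weights, 7 with the array sets as a covariate and 1 to 2 with an array left out. Of all probe sets, the fit used above called 166. The alternatives called 152, 144, 81, 833 and 700 in that order, and 49 to 162 with an array left out. Of the 118 partner genes, limma called 2 in shZeb1_C when arrays were weighted, where 572 of all 19572 probe sets were called. A model that held the array sets as a covariate called 2 as well, where 875 of all 19572 were called. In both fits the share called was smaller among the partners than among all probe sets. The cause of these changes was not tested, except that a looser threshold can only raise a count by construction. Of 967 single-member values in shZeb1_C under alternatives, 941 moved by less than the SD of the shZeb1_C arrays and 0 of the called ones changed sign. In 6 members near 0 or with spread arrays the sign changed at least once (Sec23a, Sav1, Atp6v1d, Vti1b, Zfp36l1 and Sel1l). A member at or below the median level gives little room to measure a fall.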
